A study of Xenopus laevis with 4 samples.

Results

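Windows of 100 kb in which hardly any methylated DNA was called were examined in Xenopus laevis embryos before zygotic genome activation (ZGA). Each of the 18 chromosomes was divided into full windows of 100 kb from its first base, and the midpoints of peaks were counted in the list of each MBD capture library. A window with 3 or fewer midpoints over both lists is called near-empty here. The rule found 541 near-empty windows among 27402, which is 1.97% of all windows, or 54.1 Mb of 2740.2 Mb. Neighbouring near-empty windows were joined into 493 regions. Whole wild-type (WT) embryos of the 256-cell stage (4.5 hpf) were used, 250 for each replicate. The series holds 2 MBD capture libraries, made by capture of methylated DNA on an MBD protein (H6-GST-MBD), and 2 Input libraries of genomic DNA from the same stage, which enter here only as the control of the authors' peak calling.

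In vertebrates most CpG dinucleotides carry DNA methylation, and the sequences that escape it are mainly CpG-rich promoters. Hox clusters and other groups of developmental regulators are known in vertebrates for broad stretches that lack methylation. Xenopus laevis is an allotetraploid frog, so most genes can have a copy (homeolog) on an L and on an S chromosome. A captured library reports methylated DNA where CpGs are dense enough to be bound and where reads can be placed. Sequence with few CpGs, sequence missing from the assembly and repeated sequence therefore also lack peaks, and their part in the results below was not tested. No genome sequence was used here, so no sequence of a window is shown.

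The peak counts that chose the windows are given as a description, without a test. Over all windows the median was 5 midpoints in replicate 1 and 8 in replicate 2, with highest counts of 22 and 28. Inside the near-empty windows the medians were 1 and 2, and neither list placed more than 3 midpoints in any of them. Replicate 1 had no midpoint in 241 of the 541 windows and replicate 2 had none in 63, and 28 windows had none in either list. Just inside the limit lay 283 windows with exactly 3 midpoints, and just outside it 450 windows with 4. The plot of midpoints per window shows no gap at the limit, so the limit does not separate a distinct class. Whether the near-empty windows include a class of their own was not tested. Depth was 17645240 tags in replicate 1 and 23909019 in replicate 2, of which 22.2% and 42.3% lay in peaks. The file headers give 3.99 and 5.41 expected tags for a stretch of 500 bp, values of the peak caller and not measured means. They require 12 and 15 for a peak, so a window can lack peaks and still hold tags. Tags per window were not measured here.

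**Figure D1:**
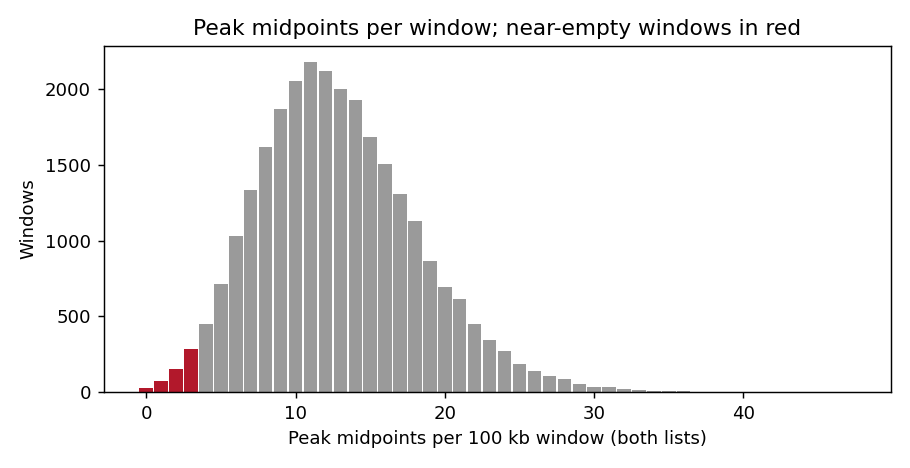
Number of 100 kb windows (y axis) by the peak midpoints they hold over both MBD capture lists (x axis), with the near-empty windows in red. The 541 near-empty windows form the left tail, with 283 windows at 3 midpoints and 450 just outside at 4.

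Because the rule summed both lists, each list was also read in windows chosen by the other alone. The 271 windows with at most 1 midpoint in replicate 2 (0.989% of all windows) held 1.24 ± 1.15 midpoints in replicate 1 (SD over windows), against 4.83 ± 2.52 in the other windows. Of them, 175 (64.6%) also had at most 1 midpoint in replicate 1, against 7.46% of all windows. In the opposite direction, the 2045 windows with at most 1 midpoint in replicate 1 held 4.67 ± 2.47 midpoints in replicate 2, against 8.41 ± 3.30. Of these, 8.56% had at most 1 midpoint in replicate 2. Both shares count the same 175 windows and differ because the lists differ in length. Windows are not replicates, so no p-value was computed.

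Most regions were short. A single window made up 457 of the 493 regions, 32 regions spanned 200 kb, and the remaining 4 spanned 300, 400, 500 and 800 kb. The longest lay on 7L (92700001 to 93500000, in the Xenopus_laevis_v10.1 assembly used for all coordinates), with 2 midpoints in replicate 1 and 3 in replicate 2 over 800 kb. It held no protein-coding gene and, of other genes, a tRNA gene (trnaq-cug) and a lncRNA gene. Uninterrupted stretches of 432.4 kb and 338.0 kb without a peak in either list lay here, the longest of all chromosomes. The 300 kb region on 2S (54700001 to 55000000) held no gene of any type, no midpoint in replicate 1 and 2 in replicate 2.

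The other long regions on 9_10S differed from these in gene content. The region of 500 kb at 15200001 to 15700000 held 15 protein-coding and 14 lncRNA genes, all with numbered LOC symbols, with 1 midpoint in replicate 1 and 8 in replicate 2. The region of 400 kb at 109000001 to 109400000 held 6 protein-coding genes that covered 3.78% of its bases, with 2 midpoints in each list. The longest peak-free stretch that touched a region had a median of 72.3 kb over the 493 regions (quartiles 57.6 and 91.3 kb). Between peaks of either list the median over all 272431 stretches was 5.84 kb, and 112 stretches were 100 kb or longer, with 81 on L and 31 on S chromosomes. These medians are unlike measures, since the former takes only the longest stretch of each region. The rule also chose the regions for few peaks. The longest stretch that touched other windows was not computed.

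The other 8 regions described were taken from the 32 of 200 kb, those with the fewest midpoints first, and 6 of them held named protein-coding genes. A pair on 3L (11500001 to 11700000; 1 and 2 midpoints) and 5L (200001 to 400000; 2 and 1) held tRNA genes or numbered LOC genes only. On 8L (81400001 to 81600000; no midpoint in replicate 1, 2 in replicate 2) lay setd3.L, which encodes an actin histidine methyltransferase, ccnk.L, which encodes cyclin K, and ccdc85c.L. Their homeologs on 8S lay in windows with 8 and 14 midpoints for setd3.S, and 6 and 7 for both ccnk.S and ccdc85c.S, in replicates 1 and 2. On 6L (900001 to 1100000; 0 and 3 midpoints) lay cdk5.L, a kinase of neurons, atg9b.L of the autophagy pathway and nos3.L, the endothelial nitric oxide synthase, in a region whose bases lay 93.8% inside protein-coding genes. The regions with ddx43.L, an RNA helicase (5L, 93600001 to 93800000), and with retreg3.L, a receptor of endoplasmic reticulum turnover (9_10L, 19800001 to 20000000), held 1 and 0 midpoints in replicate 1 and 0 and 3 in replicate 2. Those with tmprss15.L, which encodes enteropeptidase (9_10L, 130800001 to 131000000), and trim45.L, a ubiquitin ligase gene (2L, 400001 to 600000), held 1 midpoint each in replicate 1 and 2 and 3 in replicate 2.

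The surroundings of near-empty regions were moderately low in peaks. Directly beside a region, windows held 3.83 midpoints on average in replicate 1 and 6.56 in replicate 2 (984 windows), against 4.79 and 8.13 over all windows. These neighbours had more than 3 midpoints by construction. At 2 windows away, 6.11% of windows were near-empty themselves, against 1.97% of all windows. The share did not fall evenly, at 5.54% at 3 windows away, 2.88% at 4, 2.99% at 5, 5.14% at 10, 2.04% at 20 and 2.57% at 50. At 50 windows away, the means had reached 4.42 and 7.48. The step at the edge follows from the rule, which limited the midpoints of both lists inside and left higher counts beside. Beyond the edge, the profile by distance shows much the same course in both lists, a slow rise over several Mb.

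**Figure D2:**
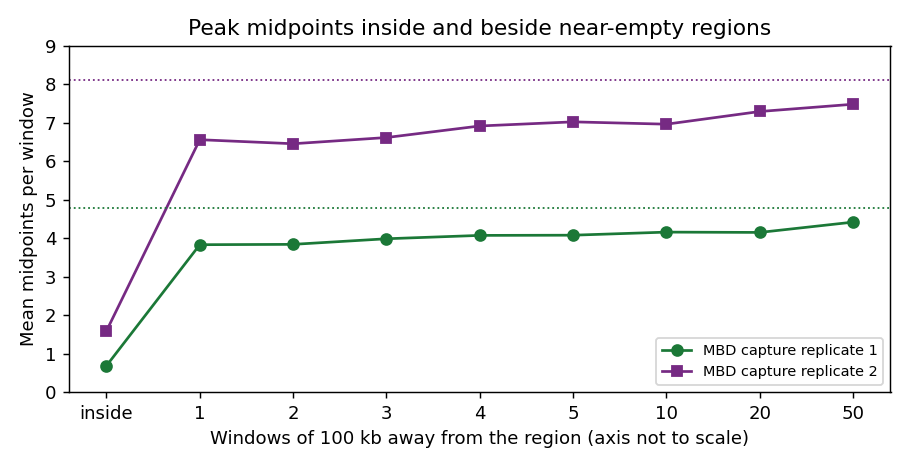
Mean peak midpoints per 100 kb window (y axis) inside near-empty regions and at growing distance on both sides (x axis, in windows, not to scale), for each MBD capture replicate, with dotted lines at the mean over all windows. Means rise from 0.688 and 1.59 inside to 3.83 and 6.56 in the windows beside the regions, a step that follows from the rule.

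Gene content was not used by the rule. Near-empty windows held 1.84 protein-coding genes on average (by gene midpoint), against 1.25 in the other windows. On single chromosomes the difference averaged 0.51 ± 0.39 genes per window (SD over 18 chromosomes) and was positive on 16 of 18, with 4S and 7L as the exceptions. Protein-coding genes covered 54.7% of bases in near-empty windows and 46.1% in the others, and 24.0% of near-empty windows had no protein-coding gene, against 36.6%. Genes inside were shorter, with a median length of 12833 bp against 17347 bp. Of protein-coding genes inside, 42.1% had only a LOC symbol, against 34.8% outside. The 28 windows with no midpoint at all held 1.21 genes on average against 1.26 in the rest, and 14 of these 28 had no protein-coding gene. Several of the 28 lay in the 800 kb region on 7L without a protein-coding gene. They are not separate cases, and the mean without that region was not computed.

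Read the other way, the share of near-empty windows rose with the number of genes. It was 1.30% among windows without a protein-coding gene, 1.89% with 1 gene, 2.36% with 2, 2.72% with 3 to 4 and 5.48% with 5 to 9 genes. Mean midpoints fell over the same classes from 13.6 to 11.1. In the panels by gene number, this order was seen on L and on S chromosomes. At the opposite end of the distribution, the 2400 windows with over 20 midpoints held 0.98 protein-coding genes on average, and 44.6% of them had none.

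**Figure D3:**
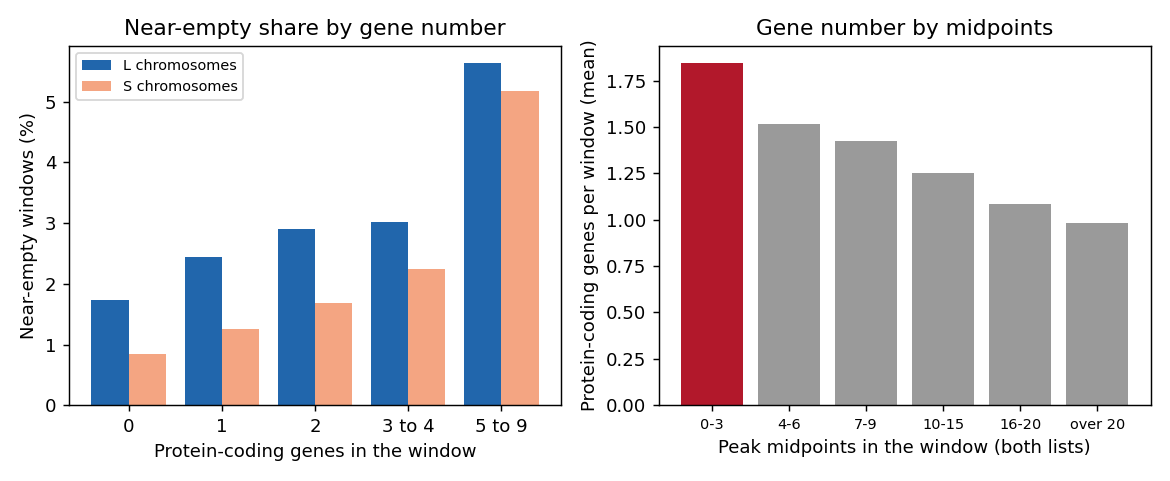
Left, percentage of windows that were near-empty (y axis) by the number of protein-coding genes in the window (x axis), for L and S chromosomes, with the 35 windows of 10 or more genes left out. Right, mean protein-coding genes per window (y axis) by peak midpoints in the window (x axis), which falls from 1.84 in near-empty windows (red) to 0.98 in windows with over 20.

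Near-empty windows were unevenly placed along chromosomes. In the outermost 1 Mb at each end, 40 of 360 windows (11.1%) were near-empty. The share fell to 0.944% at 10 to 20 Mb from the end and rose again to 2.65% at 50 Mb or more, where 249 of the 541 windows lay. Gene number also changed along the chromosome, from 2.69 protein-coding genes per window in the outermost 1 Mb to 1.10 at 50 Mb or more. Within each zone the share was higher with 5 or more genes than with none. It was 7.84% against 2.99% under 5 Mb from an end, 3.77% against 0.851% between 5 and 50 Mb, and 6.01% against 1.86% further inside. The rise between these classes was not steady in each zone. With 2 genes and with 3 to 4 genes the shares were 6.92% and 6.46% under 5 Mb. They were 1.35% and 1.13% between 5 and 50 Mb, and 3.13% and 4.21% further inside. Windows with Hox genes are among those with 5 or more genes, and shares without them were not computed. These zones were chosen after the data had been seen.

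L chromosomes held more near-empty windows than their S homeologs. On L, 369 of 14895 windows were near-empty (2.48%), and on S 172 of 12507 (1.38%). The L share was higher in 9 of 9 pairs, by 1.19 ± 0.72 percentage points (SD over pairs). Pair 8 differed most, with 51 windows on 8L (3.77%) and 11 on 8S (1.06%), and pair 1 least, with 40 (1.71%) and 30 (1.48%). The difference followed the peak counts that chose the windows and is therefore a description. It was present at each gene number up to 9, with 1.73% on L and 0.848% on S among windows without a protein-coding gene. It was also present in each zone, with 63 of 900 windows (7%) and 40 of 900 (4.44%) under 5 Mb from an end.

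**Figure D4:**
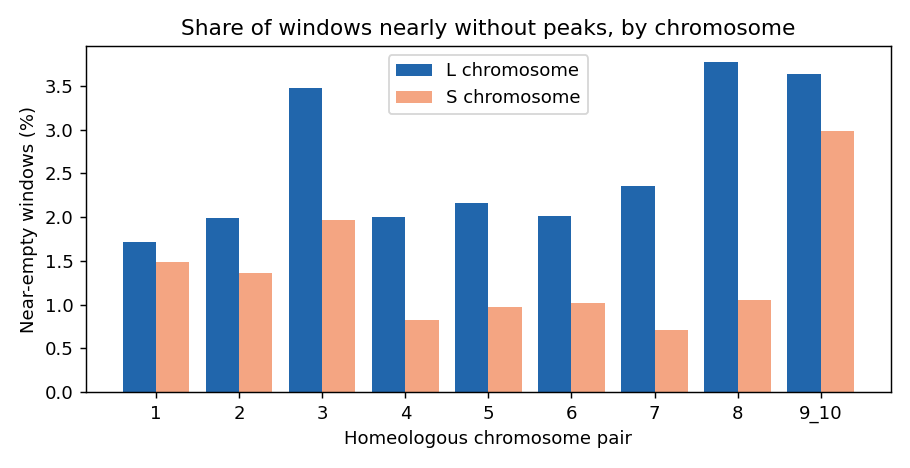
Percentage of 100 kb windows that were near-empty (y axis) on the L and the S chromosome of each homeologous pair (x axis). The L bar is higher in 9 of 9 pairs, from 1.71% against 1.48% in pair 1 to 3.77% against 1.06% in pair 8. Mean midpoints over all windows, not shown here, were lower on the L chromosome of each pair.

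Hox genes, which encode the homeodomain proteins that pattern the body axis, lay in near-empty windows in a larger share than all genes. Of 56 Hox genes matched by symbol, 34 (60.7%) lay inside, against 998 of 34441 protein-coding genes in the windows (2.90%). They came from 7 windows only, since Hox genes lie side by side, and genes of a window are not independent. Of the 8 clusters, 7 had a near-empty window. The gene hoxa11.S is placed on 6L in the table used and was counted there.

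In the HoxA cluster on 6L, the window with hoxa3.L to hoxa13.L had no midpoint in replicate 1 and 1 in replicate 2. Its homeologous window on 6S, with hoxa3.S to hoxa10.S, had 1 in each list. In the HoxC cluster, the 2L window with hoxc6.L, hoxc9.L, hoxc10.L and hoxc12.L had none in either list, and the 2S window with hoxc6.S, hoxc8.S and hoxc9.S had 1 in each. In the HoxD cluster, the 9_10L window with hoxd4.L to hoxd13.L had 0 and 1, and the 9_10S window with hoxd1.S to hoxd9.S had 0 and 2. Each of these 3 clusters thus held a near-empty window on both subgenomes.

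The HoxB cluster differed between subgenomes by window. The 9_10L window with hoxb5.L to hoxb9.L had 0 midpoints in replicate 1 and 2 in replicate 2. On 9_10S the HoxB genes were divided between a window with 2 and 6 midpoints and one with 2 and 4, neither of which was near-empty. The peak-free stretch itself was nevertheless longer on S, at 99.4 kb (3167531 to 3266941) against 77.0 kb on 9_10L (3499633 to 3576632).

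Over all 8 clusters the longest stretch without a peak in either list ranged from 77.0 kb to 134.8 kb, the latter in HoxC on 2S, and 6 of the 8 exceeded 100 kb. Between the outermost Hox genes of the clusters, 20 midpoints of replicate 1 and 33 of replicate 2 were counted in 1241 kb, or 42.7 per Mb, against 129 per Mb over the chromosomes. Of these 53 midpoints, the 2L and 2S HoxC clusters, whose span from hoxc3 to hoxc13 exceeds 300 kb in this table, held 25 and 16. The 12 other windows with Hox genes held 5 to 15 midpoints, such as that of hoxc5.L on 2L with 8 and 7 and that of hoxa13.S on 6S with 5 and 7. In the panels by cluster, the dip is narrow. With windows of 200 kb, wider than any of these stretches, only 38 windows were near-empty, and no Hox gene lay in them.

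**Figure D5:**
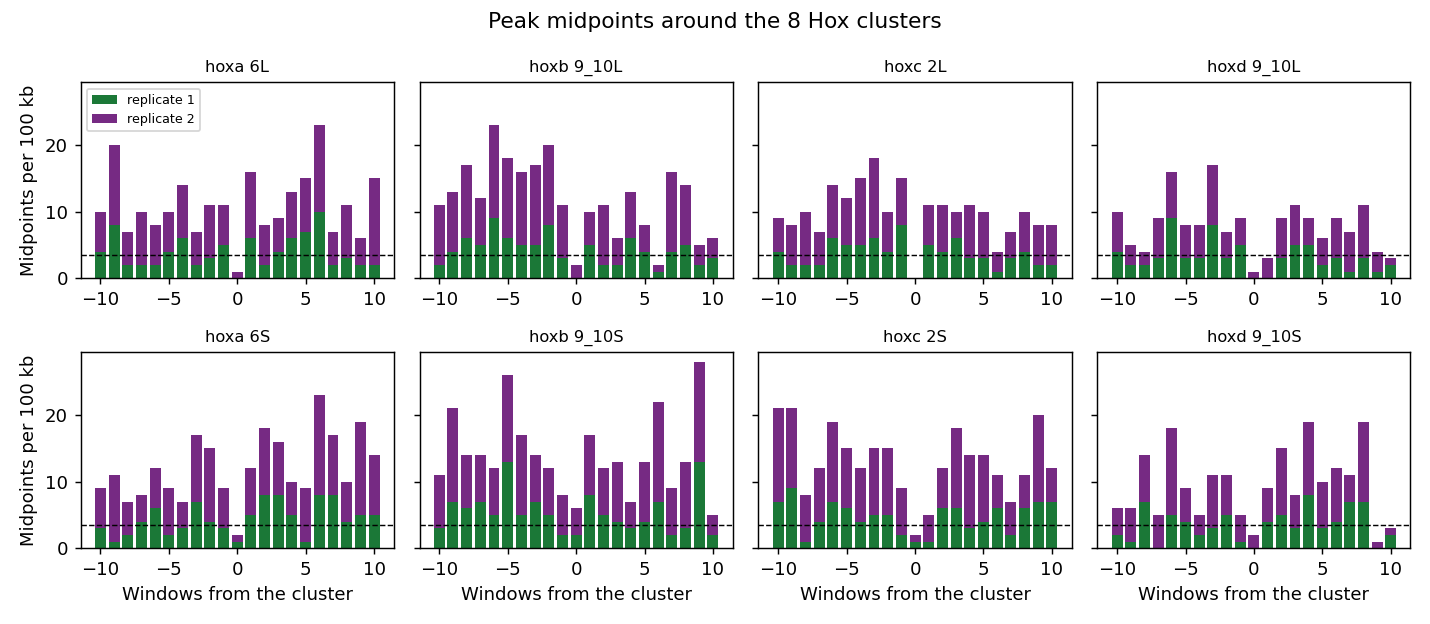
Peak midpoints per 100 kb window (y axis, replicates stacked) in the 10 windows on each side of the window that holds most genes of each Hox cluster (x axis, in windows), with a dashed line at the limit of the rule. In 7 of the 8 panels the central window holds 0 to 2 midpoints, and in the HoxB panel of 9_10S it holds 6.

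Other developmental regulators were counted by the start of their symbols, so that related genes with other symbols were not counted. Genes named as outside a list were chosen after their values were seen. Of 122 genes of the other homeobox families listed, 4 lay in near-empty windows (3.28%, against 2.90% of protein-coding genes). These were pax2.L, a regulator of kidney and ear development (1 midpoint in each list), meis3.L (0 and 2), irx1.S (1 and 2) and dlx2.L (1 and 2). The homeobox genes vax2.L (2 and 1) and phox2a.S (0 and 0), outside that list, also lay inside. Despite its symbol, phox2a.S is placed on 2L and was counted there. Of 59 Sox and Pou genes there were 2, sox15.L and sox12.S, and of 81 forkhead genes 2, foxp3.L and foxb2.S. None of 31 T-box genes matched by the symbols listed lay inside, although tbr1.L and tbr1.S, T-box genes outside that list, lay in windows with 2 and 1 and with 0 and 2 midpoints. Of 284 zinc finger genes with symbols that start with znf, zbtb, zfpm, zic or gli, 2 lay inside (0.704%), znf609.L and zbtb8b.L, and zinc finger genes outside that list, such as sp5.S (0 and 0) and snai2.L (0 and 2), lay inside too.

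Collagen genes had 7 of 58 inside (12.1%, against 2.90% of protein-coding genes). They comprised the cartilage collagens col2a1.L (no midpoint in replicate 1, 1 in replicate 2) and col9a2.L (0 and 2), the fibrillar col5a2.L (0 and 1), the basement membrane collagen col4a6.L (1 and 2), and col12a1.S (0 and 2), col21a1.L (1 and 2) and col21a1.S (1 and 1), which belong to the fibril-associated collagens. These genes spanned 48.7 to 140 kb and lay in 7 separate windows. The homeologs col21a1.L and col21a1.S were both inside. With the list of replicate 2 alone and at most 1 midpoint, 4 collagen genes lay inside, and with that of replicate 1 alone 12. These settings chose 271 and 2045 windows (0.989% and 7.46% of all), which held 1.83 and 1.59 protein-coding genes each on average. The share of all protein-coding genes was not computed for them, so the 2 counts are not compared with each other here.

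Of 115 genes for axon guidance and synapse adhesion 5 were inside (4.35%, against 2.90% of protein-coding genes, as for the groups that follow), namely csmd1-a, sema3c.S, lrfn4.L and both lrrc4.L and lrrc4.S. The guidance receptor genes unc5c.L (1 and 1 midpoints) and nrp2.L (1 and 2), outside that list, also lay inside. The lrrc4 genes lie within snd1, a gene of 379 kb on 3L and 409 kb on 3S, so that these homeologous windows also hold snd1 sequence. Cadherins gave 2 of 61, cdh2.L (N-cadherin, 0 and 3 midpoints) and cdh24.L. Potassium channel genes gave 2 of 120, kcnmb2.S and kcnmb4.L, which encode accessory subunits of calcium-activated channels. None of 54 glutamate and GABA receptor genes and none of 19 histone genes lay inside. The search for olfactory, vomeronasal and taste receptors found 1 of 36 inside, olfm1.L, which encodes olfactomedin and not a receptor, and that for MHC genes 1 of 5, hla-dqa2.L.

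Of the near-empty windows, 48 held 5 or more protein-coding genes (8.87%, against 3.19% of all windows). Beside Hox, 4 near-empty windows held 3 or more named genes with a shared root of the symbol, and how often other windows do so was not counted. The genes named next were chosen after their values were seen. Keratin genes, which encode intermediate filaments of epithelia, filled a window on 9_10L (1300001 to 1400000) with 8 members from krt12.5.L to krt51.L, and one on 9_10S (1100001 to 1200000) with 6, and each of these windows held 2 midpoints in replicate 1 and 1 in replicate 2. A window on 1L (10500001 to 10600000; 0 and 3 midpoints) held 5 genes of the nat8 family, and one on 3S (127300001 to 127400000; 0 and 3) held 4 gal3st4 genes. The window with the most protein-coding genes, 13, lay on 8L (2500001 to 2600000; 1 and 2) and included the ficolin gene fcn1.L. A window on 2L (89700001 to 89800000; 1 and 2) held hdac1.L, a histone deacetylase gene, with 7 others, and one on 8L (700001 to 800000; 0 and 3) held suv39h1.L, which encodes a histone H3K9 methyltransferase, with 6 others.

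Genes of other types lay inside in differing shares. lncRNA genes had 136 of 3909 inside (3.48%, in 108 windows) and pseudogenes 34 of 1794 (1.90%), against 2.77% for genes of all types. Of 2612 tRNA genes, 48 lay inside (1.84%), and 40 of these came from single arrays on 9_10L (4100001 to 4200000, 25 genes, 1 midpoint in each list) and 3L (153300001 to 153400000, 15 genes, 3 midpoints in replicate 1 and none in replicate 2). Only 1 of 579 snoRNA genes and 2 of 377 snRNA genes lay inside, and none of 343 rRNA genes. Genes of these classes lie in arrays, so that few windows decide each share.

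Some near-empty windows lay within a single long gene, in a share little above that of all windows. In 69 of 541 windows (12.8%) all bases belonged to a single protein-coding gene, against 10.5% of all windows, and 63 genes held them. The longest was dmd.1.L on 2L (1149 kb), which encodes dystrophin, with a window (112000001 to 112100000) of 0 midpoints in replicate 1 and 3 in replicate 2. LOC121400953 on 3L (1044 kb) held 4 such windows. Others lay inside ntm.L (713 kb), a cell adhesion gene of neurons, ptprf.L (635 kb), which encodes a receptor phosphatase, and tcf4.L (278 kb), which encodes a bHLH transcription factor. In schip1.L (5L, 122700001 to 122800000) such a window had no midpoint in either list. Windows that no gene of any type touched were rarer than elsewhere, with 44 near-empty windows (8.13%) against 16.3% of all windows, and 9 of these 44 lay on 7L.

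Homeologs of genes inside near-empty windows were compared with those of other genes, over 7756 pairs whose symbols differ only in L and S. The windows of the homeologs were not used to choose the windows they are compared with. The 370 paired genes inside had homeologs in windows with 9.47 midpoints on average, and those outside 12.3. The mean was lower for genes inside on 18 of 18 chromosomes, with a difference of -3.23 ± 1.60 midpoints (SD over chromosomes). The difference was smallest on 8L, at 13.9 against 14.4 (37 genes inside), and largest on 8S, at 4.20 against 10.4. The 370 genes came from 224 windows, and 7S and 8S had 5 genes each. Chromosomes of a homeologous pair share gene pairs, so the 18 values are not independent. For 225 genes inside on L, 26 homeologs (11.6%) lay in a near-empty window, against 1.87% over all paired L genes. For 145 genes inside on S it was 26 (17.9%), against 2.90% over all paired S genes. These are the same 26 gene pairs, counted from each side. Without Hox genes these shares were 8.61% and 13.5%. Most genes inside thus had a homeolog in a window above the limit.

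The difference was seen at each number of genes in the homeolog's window. Where that window held 1 protein-coding gene, the homeologs of genes inside had 10.5 midpoints and those of genes outside 12.9, and where it held 5 or more the means were 7.08 and 10.9. Of 83 homeologs in the last class, 29 (34.9%) lay in a near-empty window, against 4.52% for genes outside. Hox genes made up 16 of the 29, and without Hox genes, an alternative added after the data had been seen, the class held 13 of 63 (20.6%) against 3.704%, with means of 8.60 and 11.03 midpoints. Distance from the chromosome end was not held fixed in these comparisons. The near-empty share was 11.1% in the outermost 1 Mb and 0.944% at 10 to 20 Mb. Some homeologous near-empty windows lay near an end on both subgenomes, such as those of mig30 and pcgf1 on 1L and 1S.

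Pairings of a near-empty window on L with one on S by at least 1 gene pair numbered 15, from 15 L and 14 S windows, and Hox genes were in 3 of them. The others included the window of csrnp3.L and galnt3.L on 9_10L and its counterpart on 9_10S, both with 1 midpoint in replicate 1 and 2 in replicate 2. Those of mig30.L and pcgf1.L, which encodes a Polycomb protein, had 1 and 2 midpoints on 1L and 2 and 1 on 1S. The 8L window of muc1.L and thbs3.L had 0 and 2, and that on 8S 1 and 2. In 93 windows with 2 or more pairs, the stretch from the first to the last paired gene held 27.4 midpoints per Mb. The rule chose these windows for few midpoints, so this value is low by construction. In the homeologous stretch, with a median length 1.06 times as great, the density was 86.3 per Mb, against 129 per Mb over the chromosomes. The chromosome value includes sequence without genes, and a value for other stretches bounded by genes was not computed. Some stretches were counted from both sides, such as those of mig30 and pcgf1 and of csrnp3 and galnt3. Stretches in chosen windows therefore also enter the homeologous value. In 9 of these 93 the homeologous stretch held no midpoint. Among the 9 were Hox genes on 6L, 2L, 2S and 9_10L. Within the 9, HoxC genes and the pair muc1 and thbs3 were counted from both the L and the S side. The share among stretches of other genes was not counted.

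Peaks that did occur in near-empty windows were mostly as narrow as a single calling stretch, as elsewhere, and recurred less often. They numbered 372 in replicate 1 and 861 in replicate 2, and covered 0.381% and 0.949% of the bases of these windows. Peaks of the commonest width, which is that of a single calling stretch, made up 79.8% and 71.8% of them, against 67.4% and 61.5% elsewhere. No peak in a near-empty window reached 3 kb, and the widest measured 2932 bp (9_10L, 136358559 to 136361490, replicate 2). Elsewhere 0.139% and 0.370% of peaks reached 3 kb, shares at which few would occur among 372 and 861 peaks. Their absence is therefore not read as a difference. Of the peaks inside, 118 of replicate 1 (31.7%) and 118 of replicate 2 (13.7%) overlapped a peak of the other list, against 61.9% and 36.3% elsewhere. The rule itself limits the peaks of both lists in a window, and its part in the lower recurrence was not tested.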

How the data were processed

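MBD-seq peak lists of 2 MBD capture libraries were used, and the 2 Input libraries were not analysed on their own. Per the file headers, the authors called histone-style peaks with HOMER (4.11 in the submitters' processing notes) in each replicate against the Input of that replicate. Stretches of 500 bp needed 4-fold enrichment over Input and were stitched below 1000 bp. By the study's methods, reads were aligned with bowtie (4.2 in the processing notes) to genome version 10.1 and only properly paired ones were retained. The deposited score is 1 for all peaks, and the deposited start and end positions were the values used. Starts are printed counted from 1.

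Genes came from a RefSeq table of assembly Xenopus_laevis_v10.1 with 44456 genes and no strand. Chromosome ends were set at the highest peak or gene coordinate, and a gene lay in the window that held its midpoint. No statistical test was run, because the peak counts chose the windows and only 2 libraries were compared, and the values are descriptions with their spread over chromosomes. The study's methods describe the replicates as independent. The members, gene groups and comparisons were chosen with earlier results of these data known. Named genes are those with a named symbol in the 12 longest regions (ties by fewer midpoints), up to 6 each, and up to 6 of each fixed gene group by length, apart from Hox, collagen and further genes said to be chosen afterwards. Genes named for windows within a single long gene, and for homeologous window pairs and stretches, are examples that follow neither rule. The counting was tested on simulated lists. Promoter CpG content was planned and not analysed here. Python 3.11.15, numpy 2.4.6, pandas 2.3.3 and matplotlib 3.10.9 were used.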

Additional observations from a re-analysis of the deposited data

How the results depend on the processing

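The number of near-empty windows (541, in 493 regions) depended on the limit. At most 0, 1 and 5 midpoints gave 28, 104 and 1703 windows in 23, 96 and 1462 regions. Windows of 50 kb with at most 1 midpoint gave 2695 in 2404 regions, and windows of 200 kb with at most 6 gave 38 in 32. With the list of replicate 2 shortened to 134118 peaks, near the 131303 of replicate 1, there were 1769 in 1527 regions, as fewer midpoints were counted. Without one replicate, and with at most 1 midpoint in the other list, windows ranged from 271 to 2045 and regions from 256 to 1793.

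Protein-coding genes per near-empty window (1.84, against 1.25 elsewhere) exceeded the other windows under each alternative but at most 0 midpoints (1.21 against 1.26). The value was 1.64 with at most 5, 1.60 per 100 kb with windows of 50 kb, 1.59 with the shortened list, 2.30 with genes that overlap and 1.35 with genes wholly inside, and ranged from 1.59 to 1.83 without one replicate. The share of windows without a protein-coding gene (24.0%, against 36.6% elsewhere) turned above that of other windows with at most 0 midpoints (50%, against 36.4%). It was 29.8% and 27.7% with at most 1 and 5 midpoints, 28.9% with windows from base 50000, 46.3% and 13.2% with windows of 50 and 200 kb, 29.3% with the shortened list and 18.5% with genes of all types, and ranged from 25.8% to 28.9% without one replicate. Several of the 28 windows with 0 midpoints lay in a single region on 7L without a protein-coding gene.

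Homeologs of genes inside held 0.769 times the midpoints of the others, and 0.666 and 0.870 with at most 0 and 5 midpoints, 0.853 with windows of 50 kb and 0.865 with the shortened list, with a range from 0.766 to 0.883 without one replicate. The direction was the same under each alternative run.

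Alternatives for the next values were chosen after seeing the data. Hox genes inside numbered 34, but 4 and 16 with at most 0 and 1 midpoints and 0 with windows of 200 kb, and ranged from 26 to 37 without one replicate. Collagen genes numbered 7, but 0, 2 and 15 with at most 0, 1 and 5 midpoints, 13 and 1 with windows of 50 and 200 kb and 18 with the shortened list, and ranged from 4 to 12 without one replicate. The number of windows changed with each setting, and shares of all protein-coding genes were not computed beside these Hox and collagen counts. The L to S ratio of shares (1.80) was 5.04 with at most 0 midpoints and 1.42 with windows of 50 kb, and ranged from 1.44 to 1.90 without one replicate. Where no construction is named, the cause was not tested.

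No paired analysis was possible because each comparison drew on peak lists of MBD capture alone, and Input, whose replicate numbers match, was not analysed by itself. The alternatives for promoter CpG content could not be run. In replicate 1, 486 windows held no peak midpoint, against 63 in replicate 2. The 2 captures differed in depth and in the share of tags in peaks (22.2% in replicate 1 and 42.3% in replicate 2). The part of either was not tested.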
